A study of Mus musculus with 3 samples.

Results

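The serpins are described here across the epithelial cells of the mouse mammary gland. The members are the rows of the count tables whose symbol begins with Serpin, 36 out of 19050 genes, chosen by name and not by level; 35 of them are described, and the totals and counts of serpins below are over these 35. The 3 single-cell RNA libraries, called libraries 1, 2 and 3 here, form the only group of the study. All came from untreated FVB/NJ females aged 10 weeks, as number 4 mammary glands pooled from 4 mice, digested with collagenase and trypsin and sorted for living epithelial cells by flow cytometry, in which CD49f and EpCAM mark epithelium and CD31, CD45 and Ter119 mark endothelial, immune and red blood cells. No genotype or treatment contrast exists, so the serpins were compared between classes of cells within the libraries. The labels do not say whether the libraries share 1 pool of mice, so each p-value speaks to the variation from library to library alone, and that variation may be technical.

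Each cell was placed in the class with the largest sum of marker UMIs (unique molecular identifiers, 1 per captured RNA molecule), if that sum held at least 5 UMIs and was at least 3 times each other sum. Basal cells, which include the contractile myoepithelium, were taken by Krt5, Krt14 and Acta2. Luminal progenitors were taken by Csn3, Elf5, Kit and Aldh1a3, and hormone-responsive luminal cells by Prlr, Areg, Pgr and Esr1. Of 24352 cells kept, 9763 were basal, 7952 luminal progenitor and 2530 hormone-responsive, and 4107 (16.9%) fell in no class. A looser rule would have classed 1940 more cells, and a stricter one would have dropped 4360.

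Serpins are a large family of serine protease inhibitors. An inhibitory serpin offers its reactive centre loop as bait, and when a protease cuts it the serpin springs into a new fold that traps the enzyme for good. Some members have left inhibition behind, such as the collagen chaperone encoded by Serpinh1. In the mammary gland the family is known above all for maspin, the product of Serpinb5, a gene of the normal breast epithelium, chiefly of its myoepithelial cells, whose level falls in breast carcinoma. Clade A and most of clades E to G are secreted, whereas clade B acts mostly inside cells.

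The 35 rows fell into 13 genes of clade A, 15 of clade B, 2 of clade F, and 1 each of clades C, E, G, H and I. Most lie in 3 gene groups in the mouse genome (GRCm38): 13 Serpina genes on chromosome 12 (103616675 to 104414334), 8 Serpinb genes on chromosome 1 (106861175 to 107608978) and 7 Serpinb genes on chromosome 13 (32842092 to 34002794). A UMI was seen in the classed cells for 34 of the 35 rows. Only 12 had enough counts to be tested: Serpinh1, Serpinb5, Serpinb6a, Serpinb6b, Serpinb9, Serpinb11, Serpina3n, Serpina3g, Serpina3i, Serpine2, Serpinf1 and Serping1. The filter keeps a gene that is high in 1 class alone, so the tested genes do not stand for the whole family. The Serpina1, Serpina3, Serpinb1, Serpinb6 and Serpinb9 genes have related copies, whose likeness was not measured here. Reads that match more than 1 copy make the counts of those rows uncertain.

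Promoters are shown for the members on which the class patterns turn: the 3 tested Serpina3 genes, which sit together on chromosome 12 and were all high in basal cells, and 2 Serpinb neighbours on chromosome 1 that differed in how far luminal cells carried them. The sequences are from RefSeq (GRCm38.p6), 5′ to 3′ on the gene's strand, and end at the base before the annotated gene. Capitals mark a match to 1 of 5 motifs searched on both strands: STAT (TTCNNNGAA), AP-1 (TGANTCA), the heat shock element (GAANNTTC), the CArG box by name, and TATAAA, the core letters of the TATA element.
Serpina3g, chr12:104235897-104236146, plus strand: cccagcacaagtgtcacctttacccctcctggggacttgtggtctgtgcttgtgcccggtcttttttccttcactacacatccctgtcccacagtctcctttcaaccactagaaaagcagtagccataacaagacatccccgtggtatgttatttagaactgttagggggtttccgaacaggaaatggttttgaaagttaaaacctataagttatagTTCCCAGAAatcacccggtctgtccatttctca
Serpina3i, chr12:104262872-104263044, plus strand: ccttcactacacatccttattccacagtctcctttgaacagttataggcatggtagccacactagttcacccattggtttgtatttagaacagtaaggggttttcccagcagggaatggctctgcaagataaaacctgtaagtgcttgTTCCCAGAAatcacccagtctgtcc
Serpina3n, chr12:104406458-104406645, plus strand: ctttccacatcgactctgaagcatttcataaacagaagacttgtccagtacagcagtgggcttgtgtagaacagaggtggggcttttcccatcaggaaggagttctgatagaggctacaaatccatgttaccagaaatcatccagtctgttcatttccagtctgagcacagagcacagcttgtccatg
Serpinb11, chr1:107362064-107362313, plus strand: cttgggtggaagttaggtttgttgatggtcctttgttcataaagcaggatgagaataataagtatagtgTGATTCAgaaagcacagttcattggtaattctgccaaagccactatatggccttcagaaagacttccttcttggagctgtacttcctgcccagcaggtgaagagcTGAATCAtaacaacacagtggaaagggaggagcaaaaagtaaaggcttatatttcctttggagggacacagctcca
Serpinb5, chr1:106860925-106861174, plus strand: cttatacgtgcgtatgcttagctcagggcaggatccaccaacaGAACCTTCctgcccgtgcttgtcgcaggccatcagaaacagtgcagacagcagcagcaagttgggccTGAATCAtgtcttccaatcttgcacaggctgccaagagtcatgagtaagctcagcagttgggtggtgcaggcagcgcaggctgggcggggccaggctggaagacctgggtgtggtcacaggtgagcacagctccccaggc

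Serpina3g and Serpina3i held the same STAT letters, TTCCCAGAA, at 33 to 25 and at 25 to 17 bases before the gene. In the Serpina3n promoter the aligned letters were TTACCAGAA, which is C3A counted from the 5′ end of the match, and so the searched pattern was not met. The aligned promoters were 82.9% identical between Serpina3g and Serpina3i, 78.3% between Serpina3i and Serpina3n and 75.0% between Serpina3g and Serpina3n. Serpinb11 had AP-1 letters starting 181 and 76 bases before the gene, and Serpinb5 had AP-1 letters at 140 and heat shock letters at 207. Among 32851 promoters cut to 250 bases, 7.02% held the STAT letters, 6.75% the AP-1 letters and 6.69% the heat shock letters. At the lengths of the shorter windows of Serpina3i and Serpina3n, taken next to the start, the STAT share was 4.71% (173 bases) and 5.14% (188 bases). The Serpina3i and Serpina3n windows themselves were the far part of their 250 bases, so only the lengths match. A usable promoter was at hand for 9 of the 12 tested genes. Bases just after the start of each RefSeq promoter entry were looked for in annotated transcripts of its gene. They were found for all but Serpina3g and Serpina3n, so the starts used for these genes are less sure. Serpinb6a also held a STAT match, and none of the 5 motifs was found for Serpine2, Serpinh1 or Serpinf1. A match describes the letters and says nothing of whether a factor binds there.

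The libraries held 18584156, 27220670 and 30984706 UMIs over 6691, 9034 and 11120 cell barcodes. Summed by class they gave 9 samples of between 1248867 UMIs (hormone-responsive, library 1) and 11795218 (luminal progenitor, library 3). Library 1 stood apart in its make-up, with 51.6% luminal progenitors against 19.8% and 31.9%, and in a median mitochondrial share of 2.84% against 1.79% and 1.88%. Any 2 libraries had between 62 and 123 cell barcodes in common, at most 1.70% of the smaller library. A further 6 basal markers that played no part in the class rule summed to between 5620 and 7236 CPM (counts per 1000000 UMIs) in basal cells and to at most 215 CPM in the other classes. A further 5 markers of hormone-responsive cells summed to between 4346 and 5657 CPM there and to at most 224 CPM elsewhere, and 5 of luminal progenitors to at least 13890 CPM there and at most 2411 CPM elsewhere. The 6 luminal markers checked were less clear-cut. They summed to 1375, 859 and 1118 CPM in basal cells, with Epcam at 722 CPM in library 1. The sums were 4968, 6428 and 8155 CPM in luminal progenitors and at least 11000 CPM in hormone-responsive cells.

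Basal cells carried the most serpin RNA, luminal progenitors less and hormone-responsive cells the least. Serpin rows took 0.106%, 0.111% and 0.0955% of all basal UMIs in libraries 1, 2 and 3 (0.104% ± 0.00799, SD, n = 3). The share was 0.0341%, 0.0255% and 0.0262% in luminal progenitors (0.0286% ± 0.00474) and 0.00817%, 0.0122% and 0.0109% in hormone-responsive cells (0.0104% ± 0.00207). No library of one class reached the range of another. Basal cells were also the shallowest, with a median of 1966 UMIs per cell against 3213 and 3526.

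The make-up differed as well as the total. By the mean of the libraries Serpinh1 was the most abundant row in basal cells, at 41.0% ± 6.92 (SD, n = 3) of serpin UMIs, and in luminal progenitors, at 40.0% ± 9.26, although Serpinb5 had 1070 UMIs against 1065 of Serpinh1 in the luminal progenitors of library 1. Because the UMIs count 3′ ends, these shares are not scaled by gene length. Serpinb5 and Serpinb6a supplied 14.3% ± 4.91 and 9.68% ± 1.30 of basal serpin UMIs but 25.5% ± 4.79 and 22.5% ± 7.48 of those in luminal progenitors. In hormone-responsive cells Serpinb5 was the largest part by mean, at 32.6% ± 4.70, followed by Serpinh1 at 26.3% ± 4.98, which led in library 2, and Serpinb9 at 12.6% ± 5.49. Serpina3n took 12.1% ± 4.17 of basal serpin UMIs against 1.65% ± 0.741 in luminal progenitors and 3.38% ± 1.65 in hormone-responsive cells.

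**Figure D1:**
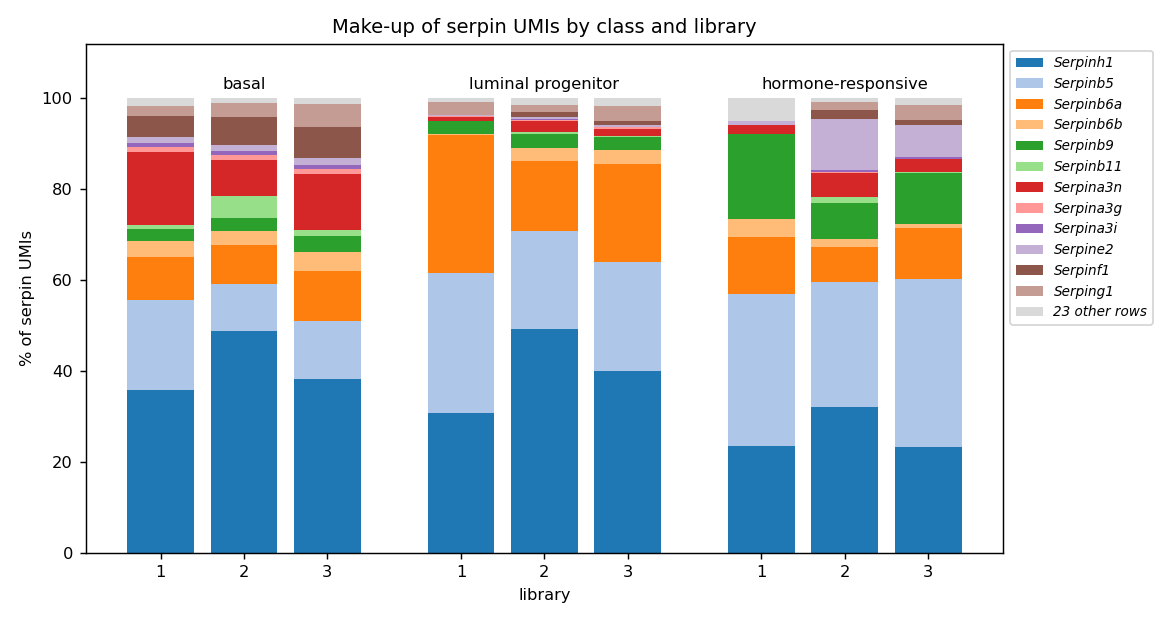
Stacked bars give each serpin row's percentage of the serpin UMIs in a class (vertical axis, %) for libraries 1 to 3 (horizontal axis), with the 23 rows that were not tested pooled in grey. Serpinh1, Serpinb5 and Serpinb6a fill most of the bars of luminal progenitors, while Serpina3n and Serpinf1 take wider bands in basal cells than elsewhere.

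When each cell was thinned to 2000 UMIs so that the classes had equal depth, a serpin UMI was found in 83.1%, 88.2% and 81.4% of basal cells (84.2% ± 3.55, SD, n = 3). It was found in 42.7% ± 4.66 of luminal progenitors and 17.4% ± 4.88 of hormone-responsive cells. Thinning left out 5068 basal cells, 1454 luminal progenitors and 423 hormone-responsive cells that were too shallow. Without it the shares were 82.2%, 58.9% and 30.0%.

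Each pair of classes was then compared gene by gene over the 9 sums, with library as a block, by edgeR's quasi-likelihood test. A gene was called when its Benjamini-Hochberg adjusted p over the 12643 genes tested was below 0.05 and its log2 fold change was at least 1 in size. Against luminal progenitors, 10 of the 12 tested serpins were higher in basal cells and 0 lower, where 17.3% of all tested genes were called higher in basal cells, 14% higher in luminal progenitors and 31.3% in either direction. Against hormone-responsive cells 11 were higher in basal cells and 0 lower, with 20.7% of all genes called higher there, 15.2% called higher in hormone-responsive cells and 35.9% either way. Between the luminal classes 4 serpins were higher in luminal progenitors, 1 was higher in hormone-responsive cells and 7 were not called, where 14.1%, 10.4% and 24.5% of all genes were called in the first class, the second or either. The counts of 0 lower serpins come from edgeR; DESeq2 also called 0, and no tested serpin had a negative basal difference at an unadjusted p below 0.05.

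The median log2 difference of the 12 serpins was 3.23 in basal cells over luminal progenitors, beside -0.08 over all genes tested. It was 4.14 over hormone-responsive cells, beside 0.00, and 0.77 between the luminal classes, beside 0.05. All 3 basal libraries lay above all 3 luminal progenitor libraries for 11 of the 12 serpins (26.4% of all genes) and above all 3 hormone-responsive libraries for 12 (30.3%). Luminal progenitors lay above hormone-responsive cells in this way for 4 (24.8% of all genes), and the ranges of the other 8 overlapped.

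**Figure D2:**
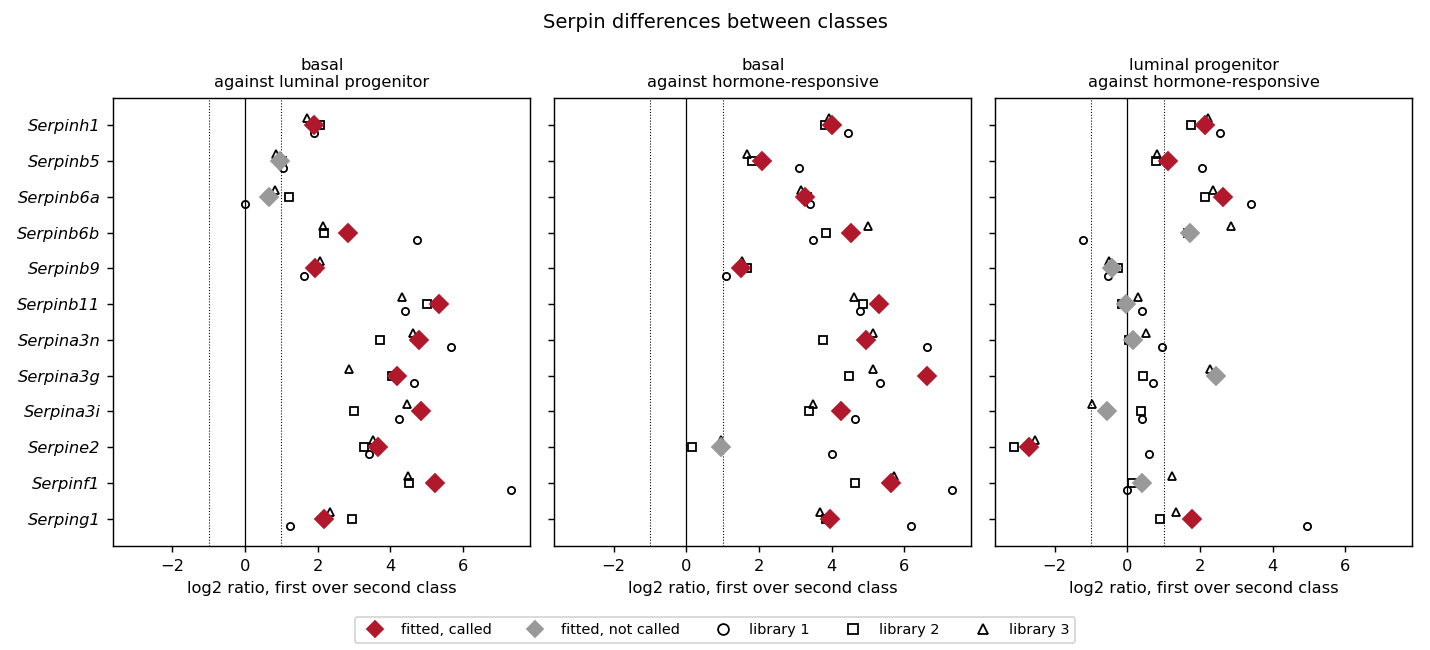
Diamonds give the fitted log2 ratio between 2 classes (horizontal axis) for each tested serpin, red where called and grey where not, and open symbols give the ratio in each library after a prior count of 2; dotted lines mark a log2 ratio of 1 in either direction. Nearly all symbols in the first 2 panels lie to the right of 0, and in the third Serpine2 lies to the left at -2.69.

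Serpinh1 encodes HSP47, the chaperone of the endoplasmic reticulum that binds folded procollagen. Its level, on the scale of TMM-normalised CPM used for all tested serpins, was 390, 533 and 379 CPM in the basal sums of libraries 1 to 3. Luminal progenitors had 105, 128 and 116 CPM, and hormone-responsive cells 17.6, 37.4 and 24.8 CPM. The classes followed one another in steps with no overlap. The log2 difference was 1.88 (SD of the library ratios 0.178, adjusted p = 1.00e-05) for basal over luminal progenitor and 2.13 (0.397, adjusted p = 1.42e-05) for luminal progenitor over hormone-responsive. Serpinh1 UMIs were spread over many basal cells: a UMI was present in 56.7% ± 8.48 of those thinned to 2000 UMIs, against 20.3% ± 2.29 of luminal progenitors and 4.90% ± 2.20 of hormone-responsive cells.

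Serpinb5 (maspin) was present in all 3 classes. Its level was 215, 113 and 126 CPM in basal cells, 105, 56.1 and 69.4 CPM in luminal progenitors and 24.9, 32.1 and 39.1 CPM in hormone-responsive cells. Library 1 was the highest in both basal cells and luminal progenitors, and luminal progenitors had a steady 50.3%, 47.9% and 51.5% of the basal level of their own library. The log2 difference of 0.97 between these classes (SD of the library ratios 0.0905, adjusted p = 5.50e-03) fell just short of the size needed for a call. It reached a size of 1.02 to 1.07 and was called in 6 of 13 other analyses. Against hormone-responsive cells Serpinb5 was higher by 2.09 in basal cells (SD 0.782, adjusted p = 1.04e-04) and by 1.13 in luminal progenitors (SD 0.726, adjusted p = 5.30e-03). The second of these was 0.81, too small for a call, without library 1.

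Serpinb6a, an intracellular inhibitor of trypsin-like proteases, was as high in the luminal progenitors of library 1 as in its basal cells. The level was 103, 92.5 and 109 CPM in basal cells, 104, 40.2 and 62.2 CPM in luminal progenitors and 9.52, 8.95 and 11.9 CPM in hormone-responsive cells. It was the only tested serpin whose basal and luminal progenitor ranges overlapped, and their log2 difference of 0.65 (SD of the library ratios 0.612, adjusted p = 2.94e-02) was not called. Without library 1 that difference was 1.06 (adjusted p = 9.55e-06) and was called. Both basal cells (3.28) and luminal progenitors (2.63, adjusted p = 7.80e-05) were higher than hormone-responsive cells, whose 3 sums lay close together.

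Its relative Serpinb6b did not share the luminal progenitor level. Serpinb6b had 36.4, 34.2 and 40.7 CPM in basal cells, 1.08, 7.33 and 8.91 CPM in luminal progenitors and 2.93, 2.11 and 0.972 CPM in hormone-responsive cells. Basal cells were higher by 2.82 (SD of the library ratios 1.47, adjusted p = 8.21e-04) and 4.54 (0.784, adjusted p = 3.82e-04) on the log2 scale. The luminal progenitors of library 1 stood below the other libraries at 11 UMIs, and the difference between the luminal classes, 1.72, was not called (adjusted p = 9.99e-02). Without library 1 it was 2.41 and was called (adjusted p = 1.23e-04).

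Serpinb9 encodes the inhibitor of granzyme B. Among the serpins called between basal and hormone-responsive cells it had the smallest difference. The level was 29.9, 30.3 and 35.2 CPM in basal cells, 9.55, 7.64 and 8.25 CPM in luminal progenitors and 13.9, 9.21 and 11.9 CPM in hormone-responsive cells. The basal level was higher by 1.92 (SD 0.229, adjusted p = 1.31e-05) and 1.50 (SD 0.313, adjusted p = 9.63e-05). The luminal classes overlapped and differed by -0.42 (adjusted p = 9.59e-02).

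Serpinb11, a clade B gene of the chromosome 1 group that also holds Serpinb5, was the tested member that varied most between libraries within basal cells. Its basal level was 8.41, 54.5 and 13.5 CPM, so library 2 had 6.49 times the level of library 1. The luminal progenitor sums held 1, 9 and 4 UMIs and the hormone-responsive sums 0, 6 and 1. Library 2 was the highest in each class. Both basal differences were called, at 5.33 (SD of the library ratios 0.368, adjusted p = 9.00e-07) and 5.30 (SD 0.117, adjusted p = 2.50e-06). Without library 2 the difference from hormone-responsive cells was 5.98. In library 2 the 573 basal UMIs came from 383 of 4338 cells, with at most 7 in a cell.

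**Figure D3:**
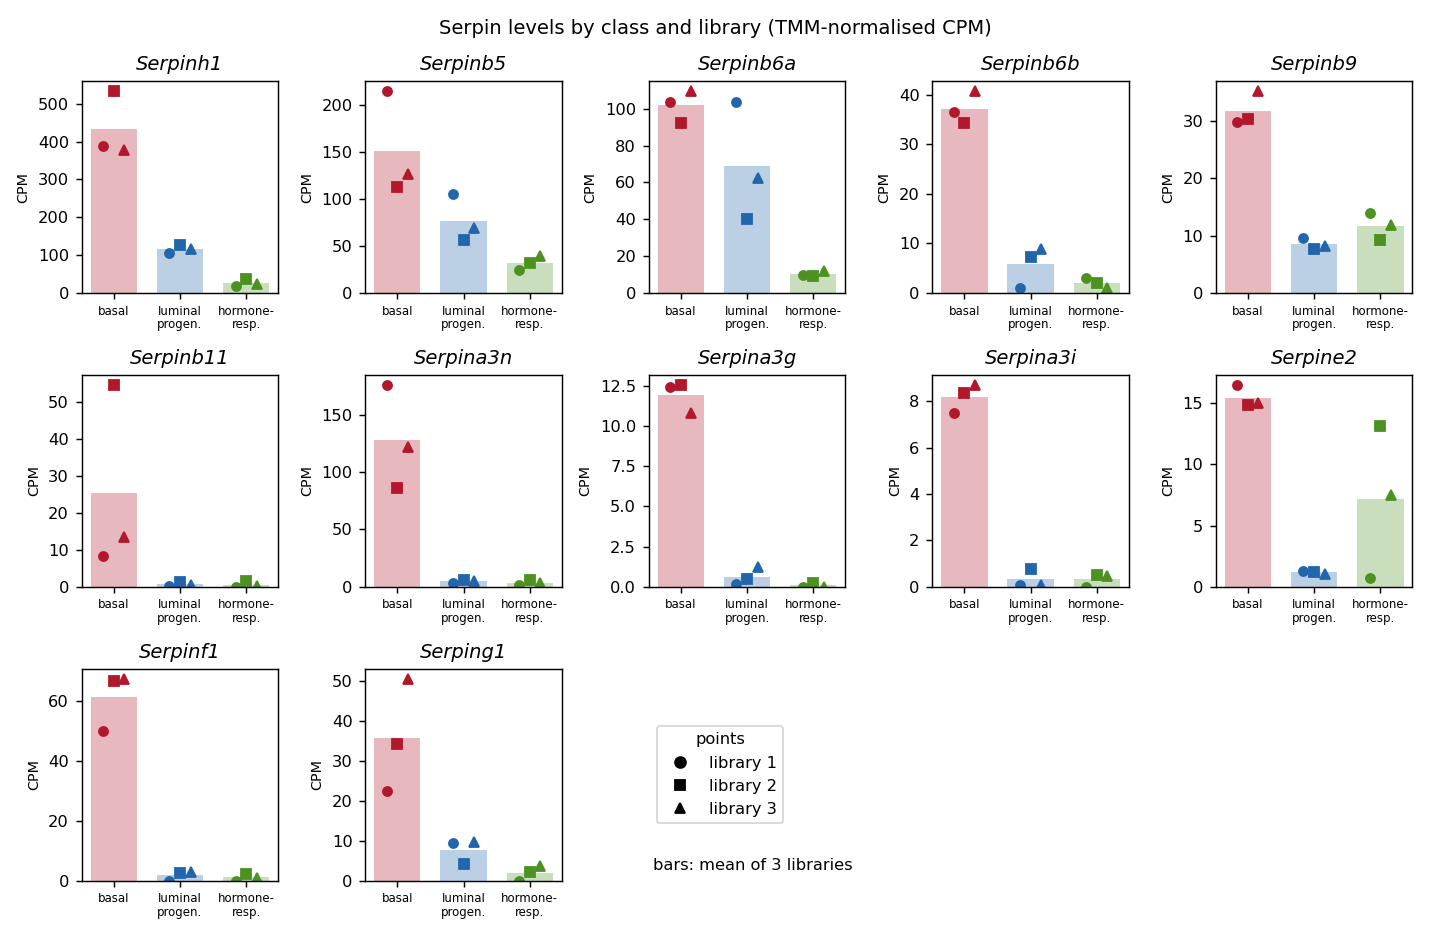
TMM-normalised CPM (vertical axes, each from 0) of the 12 tested serpins in the 3 classes, with a point for each library and a bar for the mean of 3. Basal points lie above the others for most genes, Serpinb6a overlaps in luminal progenitors, Serpinb11 is pulled up by library 2, and Serpine2 has raised hormone-responsive points in libraries 2 and 3.

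The Serpina3 genes of chromosome 12 are the mouse copies of human SERPINA3, antichymotrypsin, an acute-phase inhibitor of neutrophil and mast cell proteases. Serpina3n was the most abundant, at 176, 85.9 and 122 CPM in basal cells. It had 3.15, 6.24 and 4.69 CPM in luminal progenitors and 1.46, 6.05 and 3.16 CPM in hormone-responsive cells. Basal cells stood above both luminal classes in each library, by 4.77 (SD of the library ratios 0.976, adjusted p = 1.09e-05) and 4.94 (SD 1.44, adjusted p = 1.98e-05) on the log2 scale, and the luminal classes overlapped. Without library 2 the difference from hormone-responsive cells was 5.79.

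Serpina3g had 12.5, 12.6 and 10.8 CPM in basal cells, and 0.197, 0.468 and 1.22 CPM in luminal progenitors. In hormone-responsive cells 1 UMI was seen in all, against 249 in basal cells, a ratio of 105 with a 95% counting interval from 18.7 to 4174. Serpina3i had 7.47, 8.37 and 8.70 CPM in basal cells and at most 0.780 CPM in any luminal sum. The basal level of both genes varied little between libraries, while that of Serpina3n ranged from 85.9 CPM in library 2 to 176 CPM in library 1. Basal cells were higher than luminal progenitors by 4.17 for Serpina3g (SD of the library ratios 0.908, adjusted p = 8.74e-05) and by 4.83 for Serpina3i (SD 0.796, adjusted p = 7.51e-05). The difference was 5.24 for Serpina3g without library 3 and 6.12 for Serpina3i without library 2, and both stayed called.

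Within basal cells thinned to 2000 UMIs, 8 pairs of serpins were looked at for cells that held both, as a description over cells. Each Serpina3 gene was found more often in cells with another Serpina3 gene, in all 3 libraries. Serpina3i was present in 11.1%, 20.8% and 20.7% of cells with Serpina3g (18, 77 and 29 cells) against 1.25%, 1.40% and 1.41% of cells without it. Serpina3g was present in 5.06%, 8.14% and 7.78% of cells with Serpina3n against 1.52%, 2.20% and 1.34% of the others, and Serpina3i in 1.90%, 3.49% and 2.78% of cells with Serpina3n against 1.37%, 1.75% and 1.69%. Few cells held both genes: 2, 16 and 6 for Serpina3g with Serpina3i, 8, 28 and 14 for Serpina3n with Serpina3g, and 3, 12 and 5 for Serpina3n with Serpina3i. Reads shared among these copies could place 1 cell's transcripts in more than 1 row, and the part of this in the pairing was not tested. Serpina3n with Serpinh1 showed no such pattern: Serpina3n was in 18.3%, 12.6% and 12.2% of cells with Serpinh1 and in 20.5%, 14.8% and 15.6% of those without.

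Serpine2 encodes protease nexin-1, a secreted inhibitor of thrombin and urokinase. It stood at 16.5, 14.8 and 15.0 CPM in basal cells, 1.28, 1.25 and 1.03 CPM in luminal progenitors and 0.732, 13.2 and 7.53 CPM in hormone-responsive cells. The hormone-responsive cells of library 1 held 1 UMI, while those of libraries 2 and 3 held 50 and 31, at 91.2% and 53.4% of the basal level of their own library. Those 50 UMIs lay in 47 cells, with at most 2 in a cell. Basal cells were higher than luminal progenitors by 3.65 (SD of the library ratios 0.116, adjusted p = 2.10e-04) but were not called against hormone-responsive cells (0.96, SD 2.02, adjusted p = 8.18e-02). Serpine2 was also the only tested serpin called higher in hormone-responsive cells than in luminal progenitors, by a log2 difference of -2.69 with an SD of 2.00 (adjusted p = 3.57e-03). This call was lost when library 2 was left out (-2.06, adjusted p = 6.85e-02) and when library 3 was (-2.53, adjusted p = 5.73e-02), and in library 1 the ratio had the opposite sign, 0.61. Pericyte markers summed to 72.9, 104 and 106 CPM in hormone-responsive cells and 91.5, 79.5 and 90.3 CPM in luminal progenitors, and 0 hormone-responsive cells carried 3 pericyte markers. Notch3 alone supplied 72.1, 102 and 104 CPM of the first sum and 91.0, 77.2 and 85.9 CPM of the second, and Kcnj8 was at 0 in both classes.

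Serpinf1 encodes pigment epithelium-derived factor, a secreted serpin known for blocking blood vessel growth and not for inhibiting proteases. It had 50.1, 66.7 and 67.5 CPM in basal cells. Luminal progenitors had 0, 2.65 and 2.72 CPM and hormone-responsive cells 0, 2.37 and 0.972 CPM, so that no Serpinf1 UMI was seen in either luminal class of library 1. The basal excess was 5.23 (SD of the library ratios 1.64, adjusted p = 3.73e-05) and 5.65 (SD 1.35, adjusted p = 9.01e-05), and was 5.84 without library 3 and 6.69 without library 2 in these comparisons. Serpinf1 was more frequent in basal cells with Serpinb11 than in those without, at 22.2%, 20% and 29.3% against 8.29%, 10.7% and 10.3%, with 9, 245 and 41 Serpinb11 cells, so that the value of library 1 rests on 2 cells. The other Serpinb11 pairs went the opposite way. Serpinb5 was in 22.2%, 13.9% and 9.76% of cells with Serpinb11 against 28.6%, 20.1% and 19.6% of those without, and Serping1 in 0%, 1.63% and 0% against 3.59%, 5.32% and 6.49%.

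Serping1 encodes the C1 inhibitor, which controls the first complement proteases and plasma kallikrein. It had 22.4, 34.2 and 50.7 CPM in basal cells, 9.35, 4.21 and 9.75 CPM in luminal progenitors and 0, 2.11 and 3.64 CPM in hormone-responsive cells. The classes did not overlap. Basal cells were higher than luminal progenitors by 2.18 (SD of the library ratios 0.863, adjusted p = 5.64e-04) and than hormone-responsive cells by 3.96 (SD 1.40, adjusted p = 9.53e-05). Luminal progenitors were higher than hormone-responsive cells by 1.79 (SD 2.22, adjusted p = 2.04e-02), a call lost without library 3, where the difference was 2.20 (adjusted p = 9.37e-02).

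The sum of the fibroblast markers was, like Serpinf1 and Serping1, higher in basal cells than in luminal progenitors. Unlike both, the sum was also high in hormone-responsive cells, through Dcn. The 7 markers (Col1a1, Col1a2, Col3a1, Pdgfra, Dpt, Dcn and Lum) were all detected in each class and summed to 101, 272 and 320 CPM in basal cells, 17.6, 37.8 and 33.1 CPM in luminal progenitors and 192, 186 and 154 CPM in hormone-responsive cells. Dcn alone supplied 75.9, 221 and 239 CPM of the basal sum and 192, 167 and 141 CPM of the hormone-responsive one. By the mean of the libraries, each marker other than Dcn was lower in hormone-responsive cells than in basal cells. Col3a1 had 4.23, 18.5 and 18.7 CPM in basal cells and 0, 10.8 and 4.49 CPM in hormone-responsive cells. Col1a2 had 14.2, 18.5 and 36.8 CPM in basal cells, 0.196, 3.84 and 4.15 CPM in luminal progenitors and 0, 2.49 and 2.74 CPM in hormone-responsive cells. By the same mean, Pdgfra and Dpt were lower in basal cells (3.63 and 0.755 CPM) than in luminal progenitors (8.51 and 1.45 CPM). This did not hold in each library: Pdgfra had 3.98 against 3.68 CPM in library 2, and Dpt was at 0 in both classes of library 1. The other markers were higher in basal cells than in luminal progenitors by mean, with Col1a1 at 9.49 against 2.96 CPM and Lum at 1.71 against 0.584 CPM. At least 3 of these markers were found in 22 basal cells, 6 luminal progenitors and 1 hormone-responsive cell. Without all cells that carried 3 markers of a non-epithelial type, basal Serpinf1 was 48.8, 67.8 and 64.3 CPM by total counts, from 48.7, 68.0 and 65.1, and basal Serping1 was 18.6, 32.8 and 46.8 CPM, from 21.8, 34.9 and 48.9. All serpin calls of basal cells against either luminal class held in that analysis, and the Serping1 call between the luminal classes was lost (1.61, adjusted p = 5.89e-02). Fibroblast RNA outside such cells was not tested.

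The sort left a few cells of other types, and they show where else serpins were found. In 135 unclassed cells with at least 3 fibroblast markers (4, 61 and 70 by library, 271169 UMIs in all), Serping1 stood at 2043 CPM (95% Poisson interval 1876 to 2220, counting error only) and Serpinf1 at 1811 CPM (1654 to 1978). By library Serpinf1 had 0, 1902 and 1833 CPM, where the 4 cells of library 1 allow up to 441 CPM. A Serping1 UMI was found in 88.1% of them. Serpinh1 stood at 819 CPM (715 to 934) and Serpina3n at 140 CPM (99.2 to 192). Serpinb6b, Serpina3g and Serpina3i had 0 UMIs there, which allows up to 13.6 CPM by the exact interval. Serpinb5 had 2 UMIs.

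Cells with endothelial markers, 62 in all, had Serpinb6a at 364 CPM (260 to 496), Serpinh1 at 209 CPM (133 to 314), Serpina3n at 146 CPM (83.2 to 237) and Serpina3g at 109 CPM (56.4 to 191, from 12 UMIs in 5 cells). The 9 cells with pericyte markers had 11 Serpine2 UMIs (913 CPM, 456 to 1634) and 12 Serping1 UMIs (996 CPM, 515 to 1740). These cells were pooled over libraries and no test was made on them.

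**Figure D4:**
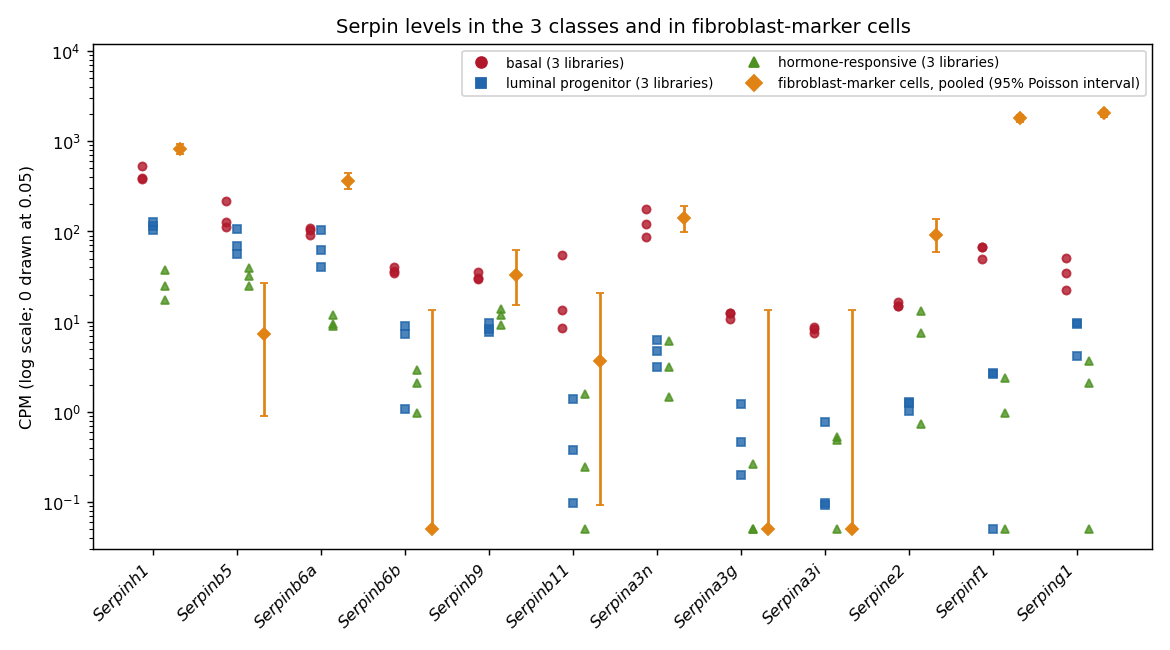
Level (CPM, log scale, with values of 0 drawn at 0.05) of the 12 tested serpins in each library of the 3 classes and in the 135 unclassed cells with fibroblast markers, pooled, with 95% Poisson intervals; the classes are on the TMM-normalised scale and the pooled cells on CPM by total counts. The fibroblast-marker cells lie above all 9 sums for Serpinh1, Serpinb6a, Serpine2, Serpinf1 and Serping1, and below all basal sums for Serpinb5.

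Free RNA in droplets can put UMIs of a basal gene into luminal cells, and its amount was not measured. Markers of basal cells were found in luminal cells at a low level, and the source of those UMIs was not tested. Of 6 such markers outside the class rule, 5 (Krt17, Tagln, Myh11, Cnn1 and Trp63) had 0.819% to 4.54% of their basal level in luminal progenitors and 0.561% to 4.71% in hormone-responsive cells. Oxtr had 17.0%, 14.6% and 6.85% in the luminal progenitors of libraries 1 to 3. Serpinb11, at 1.20%, 2.48% and 2.61% of basal in luminal progenitors, and Serpinf1, at 0%, 3.84% and 3.78%, did not exceed this range over all libraries. Within single libraries the highest of the 5 markers in luminal progenitors was Krt17, at 1.60%, 4.54% and 2.77%. Serpinb11 stayed below it in each library, whereas Serpinf1 was above it in library 3. The luminal levels of Serpinb11 and Serpinf1 are not read as expression. Serpina3n reached 7.01%, Serpina3i 8.99% and Serpina3g 10.6% in 1 library each and were below 4.54% in the others. Against Krt17 of the same library, Serpina3n was higher in every library (1.84%, 7.01% and 3.60%). Serpina3g was higher in libraries 1 (1.62%) and 3, and Serpina3i in library 2 alone. Serpinh1 (23.1% to 28.7%), Serpinb5, Serpinb6a (42.0% to 103%), Serpinb9 (22.0% to 32.8%), Serpine2 (6.44% to 8.11%) and Serping1 (11.9% to 42.8%) lay above the range of the 5 markers in the luminal progenitors of every library. Serpinb6b did so in libraries 2 and 3 (20.7% and 20.5%). In library 1 its 3.05% fell within the range over all libraries but above the 1.60% of Krt17 in that library. Oxtr, left out of that range, stood above Serpine2 in every library and above Serping1 in library 2 (14.6% against 11.9%).

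The other 23 rows held 370 of the 31223 serpin UMIs. Of these, 11 had between 10 and 54 UMIs over the 9 sums, 11 had 1 to 9, and Serpina1a had 0. Of those with at least 10 UMIs, 9 had their highest pooled level in basal cells. Serpinb10 had 9, 28 and 9 UMIs in basal cells and 0 in both luminal classes, at least 20.8-fold higher than in luminal progenitors and at least 6.48-fold higher than in hormone-responsive cells, against a floor of 3 UMIs over the group. Serpinb1a, which inhibits neutrophil elastase, went the other way, with 15 UMIs in luminal progenitors and 2 in basal cells, a ratio of 5.53 with a 95% counting interval from 1.29 to 49.8. Serpinb8 had 9, 19 and 6 UMIs in basal, luminal progenitor and hormone-responsive cells, and Serpinc1, antithrombin, had 26, 22 and 6. Serpinb2 had 3, 2 and 19 basal UMIs, so most came from library 3, and Serpina1b had 11, 4 and 0, so most came from library 1. Serpinb1b had 19 of its 24 basal UMIs in library 2. Serpini1, or neuroserpin, had 29 basal, 10 luminal progenitor and 0 hormone-responsive UMIs. These rows were not tested, and the depth cannot show differences between classes for those with 1 to 9 UMIs.

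**Figure D5:**
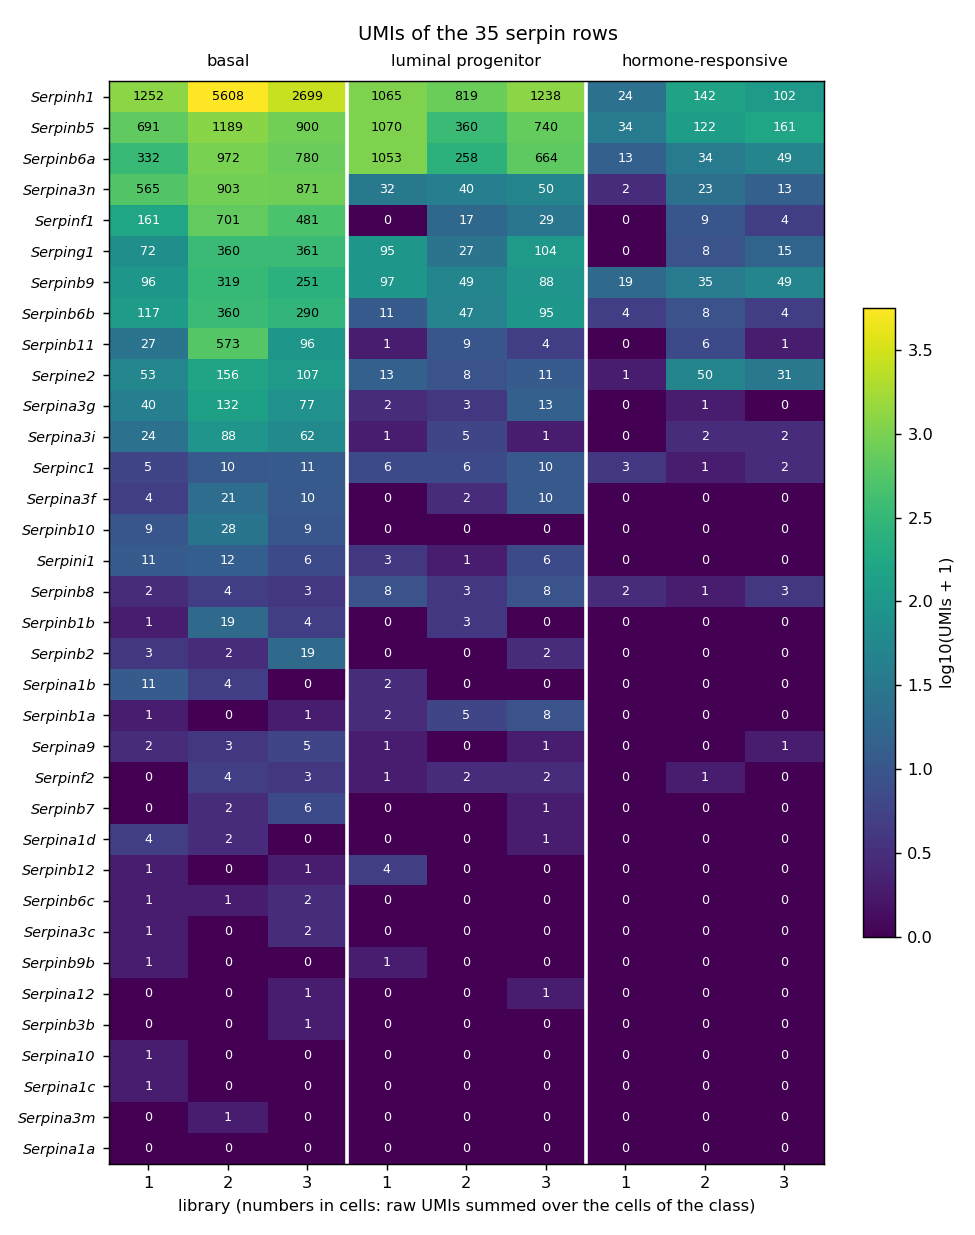
Raw UMIs of the 35 serpin rows (vertical axis) summed over the cells of each class in libraries 1 to 3 (horizontal axis), with the count printed in each field and colour on a log10(UMIs + 1) scale. The 12 tested rows fill the top of the map, and no row below Serpina3i holds more than 28 UMIs in a sum.

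The partners of the serpins were followed in 5 lists, and each list gene named with a fold change was called by the same edgeR test. Of 21 tested proteases that serpins are known to inhibit, 8 were higher in basal cells and 7 in luminal progenitors (median log2 difference 0.04), beside 17.3% and 14% of all genes tested. Against hormone-responsive cells 9 were higher in basal cells and 7 lower (median 0.16), beside 20.7% and 15.2% of all genes. The serine proteases Htra1 (72.7 ± 31.8 against 2.70 ± 1.99 CPM, SD, n = 3), Prss23 (239 ± 44.0 against 9.52 ± 3.79 CPM) and C1s1 (72.2 ± 16.6 against 2.62 ± 1.27 CPM) were far higher in basal cells than in luminal progenitors, by 4.86, 4.68 and 4.85 on the log2 scale. C1s1, a C1s protease, is a direct target of the C1 inhibitor. Tmprss2, a membrane protease, had 553 ± 374 CPM in hormone-responsive cells against 8.20 ± 3.95 CPM in basal cells, a difference of -5.97. Between the luminal classes 5 proteases were higher in luminal progenitors and 4 in hormone-responsive cells, beside 14.1% and 10.4% of all genes, with Klk11 (15.4 ± 2.81 against 0.994 ± 0.408 CPM) among the former.

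Of 27 tested receptors and cofactors of serpins, 16 were higher in basal cells and 1 lower against luminal progenitors (median 1.56), beside 17.3% and 14% of all genes. Against hormone-responsive cells 16 were higher in basal cells and 2 lower (median 1.73), beside 20.7% and 15.2%. Lrp1, the receptor that clears serpin and protease complexes, had 240 ± 56.7 CPM in basal cells against 10.5 ± 4.61 CPM in luminal progenitors (log2 difference 4.60). The heparan sulphate carriers Gpc3 (13.2 ± 1.19 against 0.679 ± 0.451 CPM, 4.34) and Hspg2 (172 ± 33.7 against 6.70 ± 2.64 CPM in hormone-responsive cells, 4.64) were also higher. The list also counts Tfpi, higher in basal cells than in luminal progenitors by 4.43, which is itself a coagulation inhibitor and not a serpin receptor. Hs3st1, which makes the heparin site bound by antithrombin, had 497 basal, 100 luminal progenitor and 3 hormone-responsive UMIs. Between the luminal classes, the integrin chain Itgb3 (3.78) and the lipoprotein receptor Vldlr (3.36) were higher in luminal progenitors, where 5 of 27 were higher and 4 lower (median -0.08), beside 14.1% and 10.4% of all genes.

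Of 29 tested genes that fold or modify collagen beside Serpinh1, 13 were higher in basal cells than in luminal progenitors and 0 lower (median 0.50), beside 17.3% and 14% of all genes, and 11 were higher and 1 lower against hormone-responsive cells (median 0.51), beside 20.7% and 15.2%. Plod2, a lysyl hydroxylase, had 22.4 ± 2.37 against 0.755 ± 0.200 CPM (log2 difference 4.82), and Kdelr3 and the prolyl hydroxylase subunit P4ha1 were higher by 4.00 and 3.51. Plod2 had 1 UMI in hormone-responsive cells against 477 in basal cells. The prolyl 3-hydroxylases P3h2 and P3h1 were higher in basal than in hormone-responsive cells, by 4.20 and 3.58. Between the luminal classes 3 of the 29 were higher in luminal progenitors, P3h2 among them (3.70), and 4 were higher in hormone-responsive cells, near the 14.1% and 10.4% of all genes. In hormone-responsive cells P4ha2 had 23.5 ± 8.17 against 1.91 ± 0.375 CPM (-3.57) and Plod1 50.1 ± 15.8 against 5.94 ± 1.24 CPM (-3.04).

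Of 20 tested protease inhibitors outside the family, 6 were higher in basal cells and 5 in luminal progenitors (median 0.03), beside 17.3% and 14% of all genes. Against hormone-responsive cells 8 were higher in basal cells and 5 lower (median 0.09), beside 20.7% and 15.2%. Slpi, the secretory leukocyte protease inhibitor (4.91), and Spock2 (5.06) were higher in basal cells than in luminal progenitors, where the WAP-domain gene Wfdc18 was higher (-4.96). Wfdc2 had 1205 ± 248 CPM in hormone-responsive cells against 36.0 ± 9.29 CPM in basal cells and 27.8 ± 6.36 CPM in luminal progenitors. Itih2 was also higher in hormone-responsive cells, by log2 differences of -6.42 from basal cells and -6.60 from luminal progenitors. Wfdc12 differed by -4.84 from basal cells, but its hormone-responsive level of 62.2 ± 95.4 CPM was uneven, with 6 of 702 UMIs in the lowest library.

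Of 13 tested genes of the complement and contact pathway around Serping1, 3 were higher in basal cells and 5 in luminal progenitors (median -0.33), beside 17.3% and 14% of all genes. Against hormone-responsive cells 5 were higher and 4 lower in basal cells (median 0.56), beside 20.7% and 15.2%. The C1s genes C1s1 (4.85) and C1s2 (5.02) were higher in basal cells than in luminal progenitors, and clusterin (Clu) was higher in luminal progenitors at 967 ± 151 against 61.4 ± 14.5 CPM (-3.99). C4b had 93.2 ± 7.57 CPM in basal cells and 7.77 ± 1.67 CPM in hormone-responsive cells (3.47). C3, the central component, had 475 ± 115 CPM in luminal progenitors against 19.9 ± 1.20 CPM in hormone-responsive cells (4.57), and 6 of the 13 were higher and 3 lower in that comparison (14.1% and 10.4% of all genes), Cfb (3.18) and C4b (2.47) among the higher.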

How the data were processed

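The authors deposited UMI count tables, 1 per library, of raw whole-number counts per gene and cell barcode. Libraries were made with the 10x Genomics 3′ version 2 kit per the labels' protocols, and Cell Ranger 2.1.0 and the build mm10 are named per the submitters' processing notes. Those tables were read with Python 3.11.15.

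Barcodes with fewer than 500 genes or over 10% mitochondrial UMIs were removed, leaving 26320 of 26845. The highest Scrublet scores (scanpy 1.11.5), 0.8% per 1000 barcodes, were removed as doublets (1968 barcodes). Counts were summed per library and class and tested with edgeR 4.0.16 (TMM factors, filterByExpr, quasi-likelihood, library as a block, two-sided); the 11 class genes were not tested. The classes of 1 library come from 1 cell suspension, and their deviations correlated at 0.19 to 0.41 within a library. Any 2 libraries differed by 5.31 to 91.0 times sampling noise (chi-square per degree of freedom). Tests were tried on simulated data.

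1 serpin is not reported here. All others passing filterByExpr are named, and of each partner list up to 3 called genes with the largest change per comparison. The members and lists were chosen with earlier results of these data known. Intervals (95%) and the floor of 3 counts cover counting error only. Promoters are from RefSeq. Alternatives tried were DESeq2 1.42.0 and its size factors, other filters, class rules and thinned sums, no doublet removal, no replicate block, and each library left out. Leaving out cells with markers of other types was chosen after seeing the data.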

Additional observations from a re-analysis of the deposited data

How the results depend on the processing

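The 10 calls of basal over luminal progenitor cells and the 11 of basal over hormone-responsive cells were kept under each alternative in which the gene was tested (Serpina3i was not tested with thinned sums), and counts of genes called over all genes stayed within 1.5 times. With no replicate block, so with no pairing of classes by library, 2100 genes were higher in basal cells and 1674 in luminal progenitors, against 2187 and 1770. DESeq2's size factors moved the median of all genes by 0.10 between basal cells and luminal progenitors. Serpine2 against hormone-responsive cells was called without the filter on low counts (1.01, adjusted p = 2.08e-02) and by DESeq2 (1.26, adjusted p = 3.60e-02). Between luminal progenitors and hormone-responsive cells some uncalled differences turned sign: with each library left out in turn, Serpina3i ranged from -1.62 to 0.17, Serpina3n from -0.013 to 0.55, Serpinb11 from -0.22 to 0.54 and Serpinf1 from -0.38 to 1.06, with thinned sums Serpinb11 was 0.10, and without doublet removal Serpina3n was -0.069. There the serpins called higher in hormone-responsive cells ranged from 0 to 1 as libraries were left out. Serpinb6b was called there without the filter (1.73), and Serping1 was not called with thinned sums (1.39, adjusted p = 1.35e-01). Thinned sums, which test fewer genes, gave 3 inhibitors outside the family higher in basal cells than in luminal progenitors and 5 than in hormone-responsive cells, 3 complement genes higher in luminal progenitors than in basal cells, 3 proteases higher in luminal progenitors than in hormone-responsive cells, and 2 collagen folding genes higher in hormone-responsive cells. With DESeq2's size factors 3 inhibitors outside the family were higher in luminal progenitors than in basal cells, and with the stricter class rule 2 receptors were; the causes were not tested. With libraries left out, receptors higher in luminal progenitors than basal cells ranged from 1 to 2, complement genes higher in basal cells from 3 to 5, and in hormone-responsive cells over luminal progenitors receptors from 4 to 7 and collagen folding genes from 2 to 7. Cells thinned to 1000 UMIs held a serpin UMI in 62.3%, 24.0% and 9.87% of basal, luminal progenitor and hormone-responsive cells, and unthinned luminal cells in 58.9% and 30.0%. Depth limits the hormone-responsive class of library 1, which held 102 serpin UMIs.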
